A study of Mus musculus with 117 samples.

Results

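A set of mouse genes named for the two-cell embryo is described here across 10 groups of mouse cells in which Ubc9 was depleted or not. The name is a label of the set: in ES cells Pramel6 and Pramel7 moved in the opposite direction to the other measured genes. The 10 genes were chosen by name: Zscan4c, Zscan4d, Zscan4f, Tcstv1, Tcstv3, Zfp352, Usp17lc, Tmem92, Pramel6 and Pramel7. Of these, 9 were in the count table of 26301 genes, and Tcstv1 was not analysed here. Tcstv3 had 0 counts in all 28 libraries, so 8 genes carried values.

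The RNA was total RNA depleted of ribosomal RNA and made into stranded libraries. The groups were embryonic fibroblasts (MEF) (E13.5, passage 1) with shUbc9 (2 libraries) or shCtrl (3), and such fibroblasts in which the OKSM reprogramming factors were expressed for 4 days (D4) or for 7 days (D7), each with shUbc9 (3) or shCtrl (3). The iPS cells derived from MEF carried shUbc9 (3) or shCtrl (2), and the ES cells, at passages 15 to 20, received siUbc9 (3) or siCtrl (3). Ubc9 is the sole E2 enzyme that conjugates SUMO to proteins. The sources used here do not give the ES strain, the number of clones behind the iPS cells or the time after siRNA or hairpin delivery. Nor do they say whether replicates were separate cultures, so a p-value measures the spread between these libraries, which may be technical.

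A mouse embryo starts its own transcription at the two-cell stage, when a burst of genes and MERVL retrotransposons is expressed and then silenced. A small fraction of cultured mouse ES cells enters and leaves a state that resembles this stage, and Zscan4 marks it. The Zscan4 proteins have a SCAN domain and zinc fingers and are known for telomere lengthening in mouse ES cells. The transcription factor Dux activates the program, and SUMO conjugation is among the systems known to keep it silent in ES cells.

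The Zscan4 genes are near-identical copies on chromosome 7, and their promoters are shown because they bear on how far the copies can be told apart. RefSeq promoters (GRCm38.p6, 250 bases before to 50 bases after the annotated start) were found for 7 of the 10 genes. The sequences lie at chr7:11005506-11005771 (plus strand) for Zscan4c, chr7:11166133-11166398 (minus strand) for Zscan4d and chr7:11397699-11397964 (plus strand) for Zscan4f. They are lined up on their TATAAA, over the 266 bases that all of them cover, and capitals mark the positions at which the copies differ.
Zscan4c: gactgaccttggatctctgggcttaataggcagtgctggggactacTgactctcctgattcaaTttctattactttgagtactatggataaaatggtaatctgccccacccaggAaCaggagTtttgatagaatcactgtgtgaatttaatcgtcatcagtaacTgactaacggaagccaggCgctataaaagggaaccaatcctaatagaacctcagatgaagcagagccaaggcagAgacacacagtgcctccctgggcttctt
Zscan4d: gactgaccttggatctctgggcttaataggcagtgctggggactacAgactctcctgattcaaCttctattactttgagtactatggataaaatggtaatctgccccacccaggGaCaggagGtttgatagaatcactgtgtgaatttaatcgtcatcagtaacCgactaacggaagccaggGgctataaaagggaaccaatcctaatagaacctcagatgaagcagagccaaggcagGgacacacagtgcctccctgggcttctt
Zscan4f: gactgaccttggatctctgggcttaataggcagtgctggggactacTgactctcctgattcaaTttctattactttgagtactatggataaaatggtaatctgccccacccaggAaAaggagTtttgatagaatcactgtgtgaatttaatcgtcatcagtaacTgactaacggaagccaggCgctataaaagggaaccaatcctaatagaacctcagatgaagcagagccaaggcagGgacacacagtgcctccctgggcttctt
Over these 266 bases Zscan4c and Zscan4f differed at 2 positions, Zscan4c and Zscan4d at 7, and Zscan4d and Zscan4f at 7. Because the blocks line up, the annotated starts do not: TATAAA began 54 bases before the annotated start of Zscan4c, 65 bases before that of Zscan4d and 31 bases before that of Zscan4f.

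The letters TATAAA, searched on both strands, were in 4 of the 7 promoters, all on the gene's own strand, and in 13.6% of 32851 promoters of the same length. Among the 4 were the Zscan4 copies, whose near-identical sequences are not independent matches, so nothing is read from this count. The fourth was that of Usp17lc, where TATAAA (capitals) began 88 bases before the start, at chr7:103416446-103416745 (plus strand). Pramel6, at chr2:87506315-87506614 (plus strand), had no match in this window and is printed beside it because its response differed in direction. Zfp352, which rose with siUbc9 in ES cells, and Pramel7, which fell, had no match either. Nothing on the direction of the response is read from this pair.
Usp17lc: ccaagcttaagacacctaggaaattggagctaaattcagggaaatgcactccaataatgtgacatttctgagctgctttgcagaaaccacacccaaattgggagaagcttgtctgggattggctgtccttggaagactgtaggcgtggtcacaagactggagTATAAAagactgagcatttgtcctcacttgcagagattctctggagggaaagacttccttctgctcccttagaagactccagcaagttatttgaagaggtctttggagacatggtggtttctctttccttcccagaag
Pramel6: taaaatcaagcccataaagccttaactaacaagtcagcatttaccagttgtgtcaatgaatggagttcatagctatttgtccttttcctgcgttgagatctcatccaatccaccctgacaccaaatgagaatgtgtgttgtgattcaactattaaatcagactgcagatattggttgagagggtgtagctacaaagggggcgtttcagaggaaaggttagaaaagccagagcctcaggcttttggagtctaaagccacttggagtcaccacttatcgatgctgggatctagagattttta
The letters TGCACAC, reported as a Zscan4 binding motif, were in 0 of the 7 promoters and in 4.4% of all promoters, which says only that these letters are not in these windows.

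Libraries held 11.4 to 58.8 M gene counts, and the share of counts in repeats was 7.22% to 24.8%. The levels below are CPM (counts scaled by effective library size), with group means ± SD (n = 3 in each ES group) and log2 fold changes ± standard error, and they compare libraries but not genes, since gene lengths were not used. The 17 pluripotency markers summed to 3555 to 6929 CPM in iPS and ES libraries, against 81.1 to 93.7 CPM in MEF libraries, and the 12 fibroblast markers to 441 to 3888 CPM, against 28391 to 34569 CPM.

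Replicate 2 of the libraries labelled iPS shUbc9 stood apart as the shallowest library (11.4 M gene counts), the one with the lowest repeat share (7.22%) and the one with the highest fibroblast marker sum among iPS libraries (3888 CPM, against 1165 to 2144 CPM in the other iPS libraries). Results on iPS cells are given with and without it.

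In ES cells, Ubc9 depletion moved 6 of the 8 genes up and 2 down. The Zscan4 copies rose by 9.21-fold to 9.93-fold, Zfp352 by 7.69-fold, Usp17lc by 4.12-fold and Tmem92 by 3.96-fold, while Pramel6 fell by 1.13 and Pramel7 by 0.84 on the log2 scale. The counts stand beside a background in which 39.1% of 17859 genes tested were called changed (edgeR quasi-likelihood test, Benjamini-Hochberg adjusted p under 0.05), 21.3% higher and 17.8% lower. The median log2 fold change of the 8 genes was 2.49, against 0.01 over all genes. In bulk RNA, more cells of a type and more RNA per cell cannot be told apart.

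The Zscan4 copies gave the widest separation. Zscan4c was at 133, 133 and 127 CPM in siUbc9 libraries, against 16.3, 14.1 and 14.9 CPM in siCtrl libraries. These levels rested on 2425, 7832 and 6295 counts with siUbc9 and 889, 689 and 753 counts with siCtrl. All siUbc9 libraries stood far above all siCtrl libraries, although the first of them held 17.4 M gene counts, fewer than the others (log2 fold change 3.20 ± 0.06 SE, adjusted p = 8.95e-09). Zscan4d was at 153, 148 and 144 CPM with siUbc9, against 17.0, 15.3 and 17.3 CPM with siCtrl (3.26 ± 0.06, adjusted p = 8.95e-09). Zscan4f was at 79.0, 64.3 and 70.2 CPM with siUbc9, against 8.27, 6.57 and 7.96 CPM with siCtrl (3.31 ± 0.11, adjusted p = 9.69e-08). The groups overlapped at none of the copies.

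How reads were split among copies is uncertain, since the sources used here do not say how reads mapping to several places were treated. Across the 11 iPS and ES libraries Zscan4c held 33.9% to 46.7% of the counts of these copies, Zscan4d 38.7% to 47.2% and Zscan4f 14.7% to 21.7%. Within ES cells the share of Zscan4c was 36.5%, 38.4% and 37.2% with siUbc9, against 39.2%, 39.2% and 37.1% with siCtrl. Thus Zscan4c, Zscan4d and Zscan4f kept nearly the same proportions while their sum changed. This does not extend to Zscan4a, a further copy, which rose 4.88-fold, against 9.21-fold for Zscan4c. The lowest Zscan4f share, 14.7%, came from the iPS shUbc9 replicate 2, with 225 counts over the copies.

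Zfp352 encodes a zinc finger protein known from the two-cell embryo. It was at 12.9, 12.9 and 13.4 CPM with siUbc9, against 1.96, 1.62 and 1.83 CPM with siCtrl, with no overlap (2.94 ± 0.09, adjusted p = 6.66e-08). Tcstv3, like Tcstv1 a two-cell transcript known for a part in telomere lengthening in mouse ES cells, was listed at 0 in each library, which allows a level of up to 0.0237 CPM over the siUbc9 libraries (3 counts, counting error only). Whether reads of this family were assigned to another copy is not known from the table.

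Usp17lc encodes a deubiquitinase of the Usp17 family, which also has many copies. Its levels were 6.97, 9.14 and 8.76 CPM with siUbc9, against 2.05, 2.48 and 1.96 CPM with siCtrl (2.04 ± 0.13, adjusted p = 3.73e-06). Tmem92, a transmembrane protein gene expressed in two-cell-like cells, was at 7.90, 8.26 and 7.91 CPM with siUbc9, against 2.0, 2.35 and 2.10 CPM with siCtrl (1.99 ± 0.10, adjusted p = 1.11e-06). In both genes each siUbc9 library exceeded each siCtrl library.

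Pramel6 and Pramel7 are leucine-rich repeat proteins of the Prame family, and mouse Pramel7 is known to support ground-state pluripotency by lowering Uhrf1. They lie near each other on chromosome 2. Pramel6 was at 0.274, 0.729 and 0.747 CPM with siUbc9, on 5, 43 and 37 counts, against 1.76, 1.06 and 1.71 CPM with siCtrl (log2 fold change −1.13 ± 0.28, adjusted p = 0.0111). Pramel7 was at 1.15, 1.10 and 0.989 CPM with siUbc9, against 2.03, 1.92 and 2.12 CPM with siCtrl (−0.84 ± 0.14, adjusted p = 0.00137). The lower siUbc9 levels did not overlap the siCtrl levels in either gene. Both calls were lost when all 28 RNA libraries shared one estimate of spread (adjusted p = 0.227 for Pramel6 and 0.383 for Pramel7), with the direction unchanged.

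**Figure D1:**
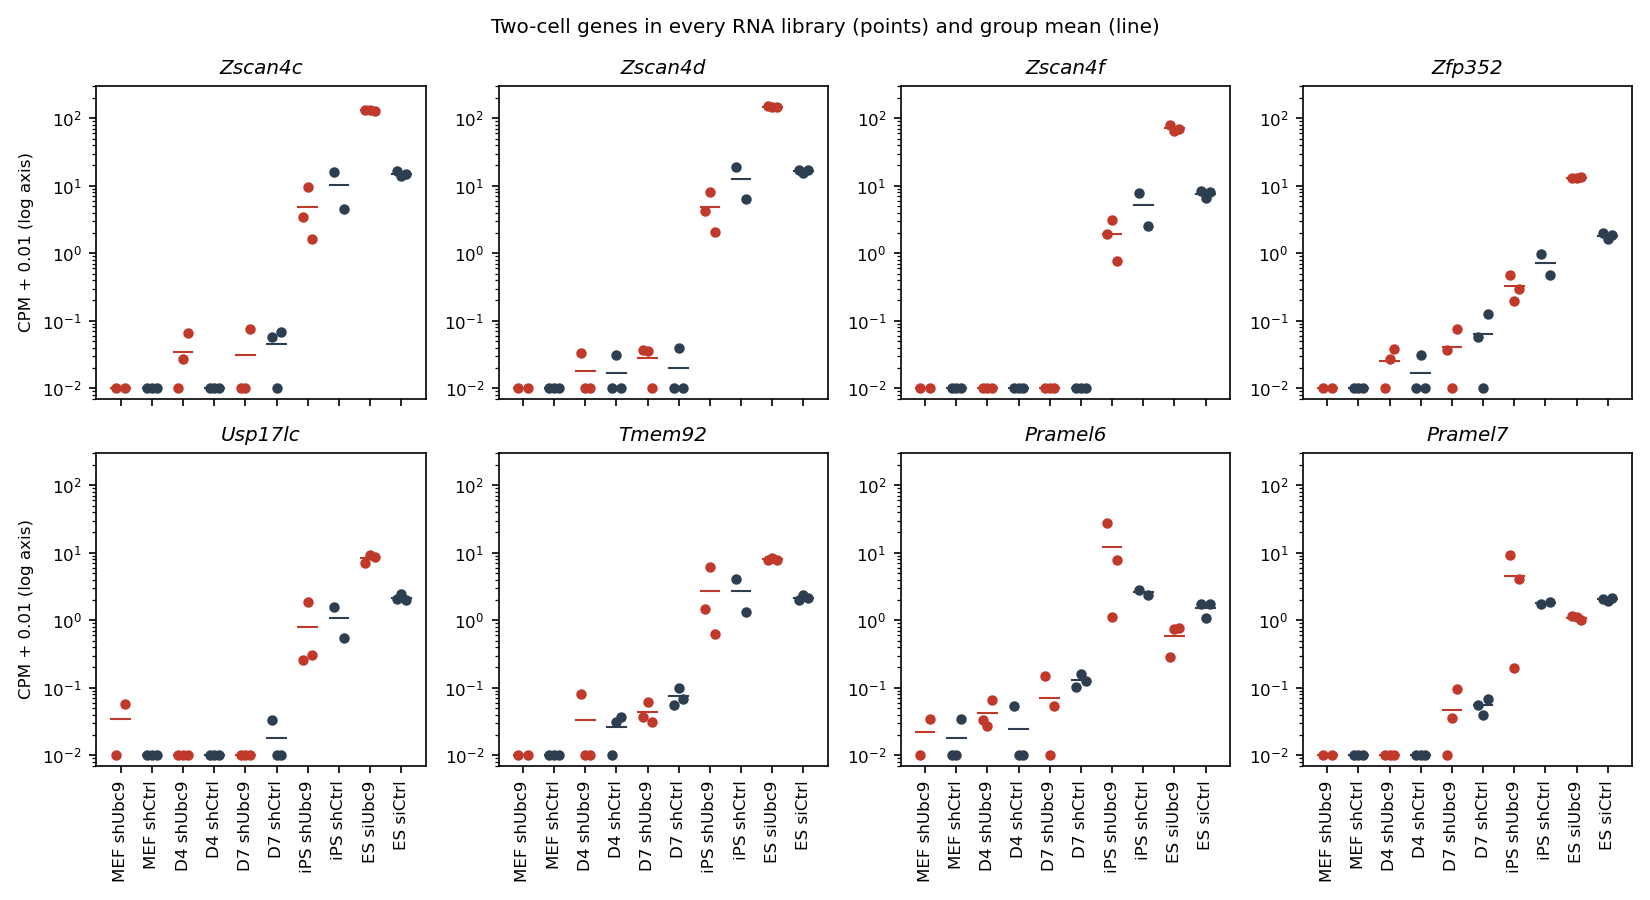
Level of each measured gene (CPM + 0.01, log axis) in each RNA library (points; red, Ubc9 depleted; dark, control) with the group mean (line), over MEF, D4, D7, iPS and ES groups. Zscan4c reached 127 to 133 CPM in ES siUbc9, against 14.1 to 16.3 CPM in ES siCtrl, and Pramel6 and Pramel7 were lower in ES siUbc9.

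Other genes of the two-cell program moved with the Zscan4 copies in ES cells. Of a list of 39 further two-cell genes, 35 were in the table and 20 had counts enough to be tested. Of these 20, 19 were higher with siUbc9 and 0 were lower, beside 21.3% higher and 17.8% lower over all genes. Tdpoz2, Rfpl4b and Obox2 had 63, 120 and 61 counts over the siUbc9 libraries, against 4, 10 and 5 with siCtrl. They are among the 19 but passed the filter on low counts only through the siUbc9 libraries. Nothing is read from their calls or from their part in the 19. Obox6 was not called (0.422 ± 0.0924 CPM with siUbc9, against 0.411 ± 0.0386 CPM with siCtrl). The median log2 fold change of the 20, with those genes included, was 2.52, against 0.01 over all genes. Zscan4a was at 73.8 ± 0.697 CPM with siUbc9, against 16.1 ± 0.984 CPM with siCtrl (4.88-fold, adjusted p = 2.43e-08). Usp17le, another deubiquitinase copy, was at 35.7 ± 1.87 CPM with siUbc9, against 4.88 ± 0.652 CPM with siCtrl (7.80-fold, adjusted p = 7.89e-08; SD, n = 3 each). Duxf3, the RefSeq symbol for Dux, had too few counts to be tested. It had 2, 9 and 16 counts with siUbc9, against 4, 1 and 1 with siCtrl, and these counts overlapped. Its levels were 0.110, 0.153 and 0.323 CPM with siUbc9, against 0.0733, 0.0205 and 0.0198 CPM with siCtrl. As CPM the groups did not overlap, but these levels rest on very few counts.

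**Figure D2:**
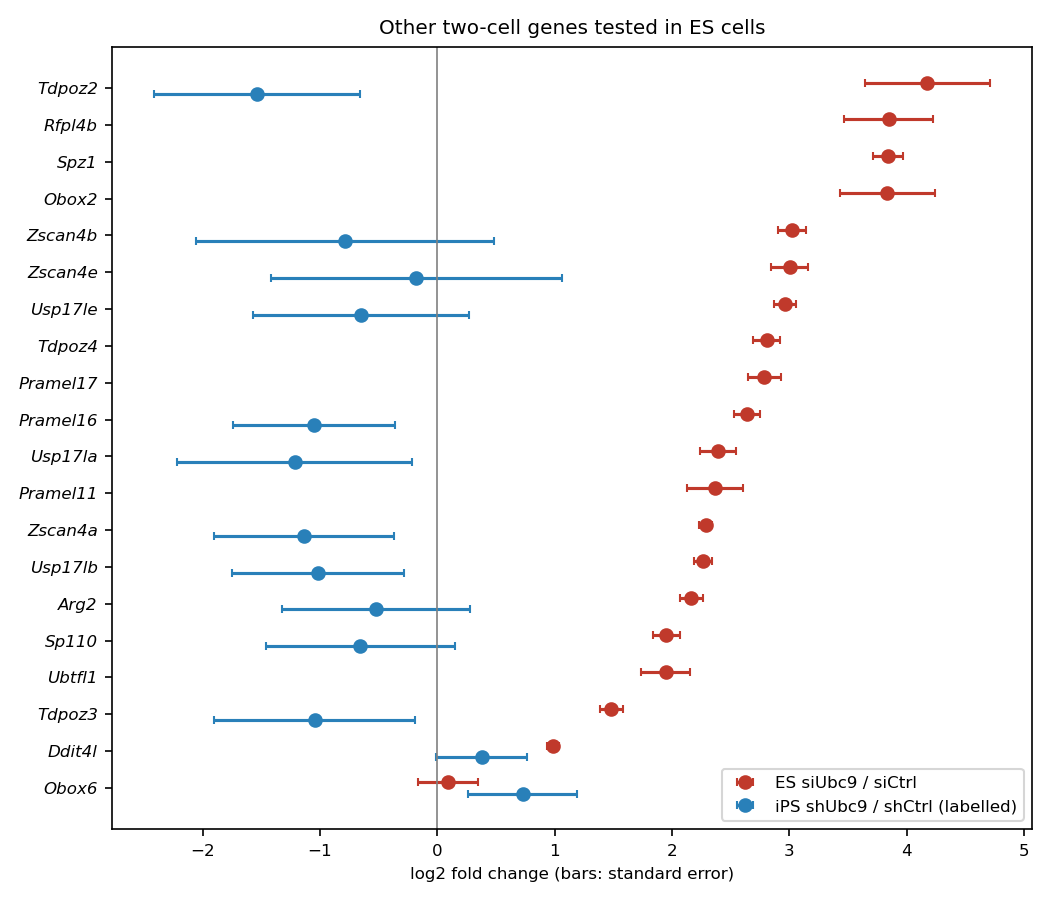
Fitted log2 fold change with its standard error for the 20 further two-cell genes tested in ES cells (red), and for those of them also tested in iPS cells (blue; libraries labelled shUbc9 over shCtrl). In ES cells Obox6 alone, at 0.09, was not called higher, and no gene was called in iPS cells. Tdpoz2, Rfpl4b and Obox2 passed the filter on low counts only through the ES siUbc9 libraries, so nothing is read from their calls.

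A list of 9 further genes known to act on the program in mouse ES cells held mostly activators, and also Pias4, a SUMO E3 ligase reported to oppose it. Of these 8 were tested, 2 rose and 1 fell, together a share near the 39.1% of all genes called, and the median log2 fold change was 0.04, against 0.01 over all genes. Dppa3, a maternal factor, was at 24.0 ± 0.0742 CPM with siUbc9, against 5.29 ± 1.00 CPM with siCtrl (4.82-fold, adjusted p = 6.84e-07). Nelfa, a subunit of the negative elongation factor, was at 100.4 ± 0.737 CPM with siUbc9, against 75.7 ± 1.62 CPM with siCtrl (1.41-fold, adjusted p = 5.39e-05). Tbx3, a T-box factor, was lower, at 10.5 ± 0.339 CPM with siUbc9, against 15.7 ± 1.87 CPM with siCtrl (adjusted p = 0.0040). Dppa2 and Dppa4, which act upstream of Dux, had log2 fold changes of 0.03 and 0.06 and were not called (adjusted p = 0.761 and 0.392). Pias4 had a log2 fold change of 0.02 and was not called (adjusted p = 0.779).

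Among 28 genes known to keep the program silent, 2 rose, 9 fell and 17 were not called, beside 21.3% higher and 17.8% lower over all genes. The share called in either direction was near the 39.1% of all genes, and the median log2 fold change was −0.04, against 0.01 over all genes. Ehmt2, a histone H3 lysine methyltransferase also called G9a, was at 194 ± 5.02 CPM with siUbc9, against 279 ± 0.537 CPM with siCtrl (log2 fold change −0.44, adjusted p = 6.64e-05). Zfp42, also called Rex1, was at 236 ± 6.89 CPM with siUbc9, against 376 ± 31.1 CPM with siCtrl (−0.58, adjusted p = 0.000131). Zmym2 and E2f6 were the 2 that rose, by 1.15-fold (adjusted p = 0.00614) and 1.19-fold (adjusted p = 0.00677). Each of these named changes was smaller than that of any Zscan4 copy.

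Markers of cell types moved in the same comparison. Of 17 pluripotency markers 0 rose and 12 fell, beside 21.3% higher and 17.8% lower over all genes, among them Nanog, a core pluripotency factor, at 46.2 ± 2.07 CPM with siUbc9, against 95.6 ± 3.64 CPM with siCtrl (1.95-fold lower, adjusted p = 2.51e-06), and Fgf4, a growth factor of the early embryo (1.89-fold lower, adjusted p = 2.53e-06). The summed levels were 3555 to 3921 CPM with siUbc9, against 4498 to 4836 CPM with siCtrl, for pluripotency markers, and 441 to 532 CPM with siUbc9, against 561 to 834 CPM with siCtrl, for 12 fibroblast markers. The 8 primitive endoderm markers summed to 80.2 to 84.5 CPM with siUbc9, against 102 to 113 CPM with siCtrl. The 8 trophoblast markers summed to 20.5 to 21.8 CPM with siUbc9, against 32.0 to 33.1 CPM with siCtrl, and the 8 macrophage markers to 36.3 to 37.4 CPM with siUbc9, against 46.4 to 52.0 CPM with siCtrl. All these sums were lower with siUbc9 and none overlapped, but the members of 2 lists moved both ways.

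Of the 12 fibroblast markers 2 rose and 2 fell, beside 21.3% higher and 17.8% lower over all genes. This background applies to each list that follows. S100a4, a calcium-binding protein, was at 3.99 ± 0.357 CPM with siUbc9, against 2.63 ± 0.577 CPM with siCtrl (adjusted p = 0.00738), and Col6a1, a collagen chain, at 1.36 ± 0.281 CPM with siUbc9, against 0.987 ± 0.177 CPM with siCtrl (adjusted p = 0.0404). Fn1, the fibronectin gene that makes up most of that sum, was lower, at 441 ± 39.9 CPM with siUbc9, against 641 ± 134 CPM with siCtrl (adjusted p = 0.0316), and so was Thy1, a surface glycoprotein (1.69-fold lower, adjusted p = 0.00123). Of the 8 macrophage markers 4 were tested, 2 rose and 1 fell. Fcer1g, an Fc receptor subunit, was 5.98-fold higher (adjusted p = 1.40e-05), and Itgam, an integrin subunit, was 1.82-fold higher (adjusted p = 3.61e-05). Cd68, a lysosomal glycoprotein that makes up most of the macrophage sum, was lower, at 24.4 ± 0.416 CPM with siUbc9, against 42.7 ± 2.69 CPM with siCtrl (adjusted p = 1.16e-05). Of the 8 primitive endoderm markers 0 rose and 5 fell, among them Sox7, a transcription factor (2.81-fold lower, adjusted p = 0.00019), and Col4a1, a basement membrane collagen (1.21-fold lower, adjusted p = 0.00424). Of the 8 trophoblast markers 7 were tested, 0 rose and 2 fell. For fibroblast and trophoblast markers the share called was under the 39.1% of all genes called, so nothing is read from those counts. The part of these marker changes in the rise of the two-cell genes was not tested.

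MERVL-int, the internal part of the retrotransposon, was at 3421 ± 225 CPM with siUbc9, against 1075 ± 45.4 CPM with siCtrl (3.38-fold, adjusted p = 5.96e-09 over repeat families, of which 7.78% were called), and its LTR MT2_Mm was 2.17-fold higher (adjusted p = 1.91e-05).

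The libraries labelled iPS shUbc9 gave no call. Of the 8 genes, 0 were called changed, and 0% of 17294 genes were (edgeR), with 0 of the 8 genes and 246 genes at an unadjusted p under 0.05, and with 0 of the 8 genes and 10 genes called by DESeq2. Zscan4c was at 3.39, 9.71 and 1.59 CPM in shUbc9 replicates 1, 2 and 3, against 15.8 and 4.5 CPM in shCtrl replicates 1 and 3 (log2 fold change −1.13 ± 0.84, adjusted p = 0.999988). Zscan4d was at 4.20, 8.04 and 2.06 CPM with shUbc9, against 18.9 and 6.27 CPM with shCtrl (−1.47 ± 0.70). Zscan4f was at 1.95, 3.05 and 0.766 CPM with shUbc9, against 7.73 and 2.52 CPM with shCtrl (−1.50 ± 0.73). The groups overlapped at each copy, and the shCtrl libraries were themselves far apart.

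Zfp352 had a log2 fold change of −1.13 ± 0.65, Usp17lc of −0.63 ± 0.99 and Tmem92 of −0.09 ± 0.98, all with adjusted p = 0.999988. The Pramel genes had the widest spread. Pramel6 was at 27.8, 1.11 and 7.86 CPM with shUbc9, on 1000, 12 and 503 counts, against 2.84 and 2.36 CPM with shCtrl (2.23 ± 1.13). Pramel7 was at 9.29, 0.185 and 4.13 CPM with shUbc9, against 1.75 and 1.84 CPM with shCtrl (1.35 ± 1.12). In both genes replicates 1 and 3 were above both controls and replicate 2 was below them. Without replicate 2, Pramel6 had a log2 fold change of 2.74 (adjusted p = 0.299) and Zscan4c of −2.08 (adjusted p = 0.556), and 0 of the 8 genes were called. Of the further two-cell genes, 16 were tested in iPS cells and 0 were called. MERVL-int was at 210 ± 64.0 CPM with shUbc9 (SD, n = 3), against 409 ± 205 CPM with shCtrl (SD, n = 2), and was not called.

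**Figure D3:**
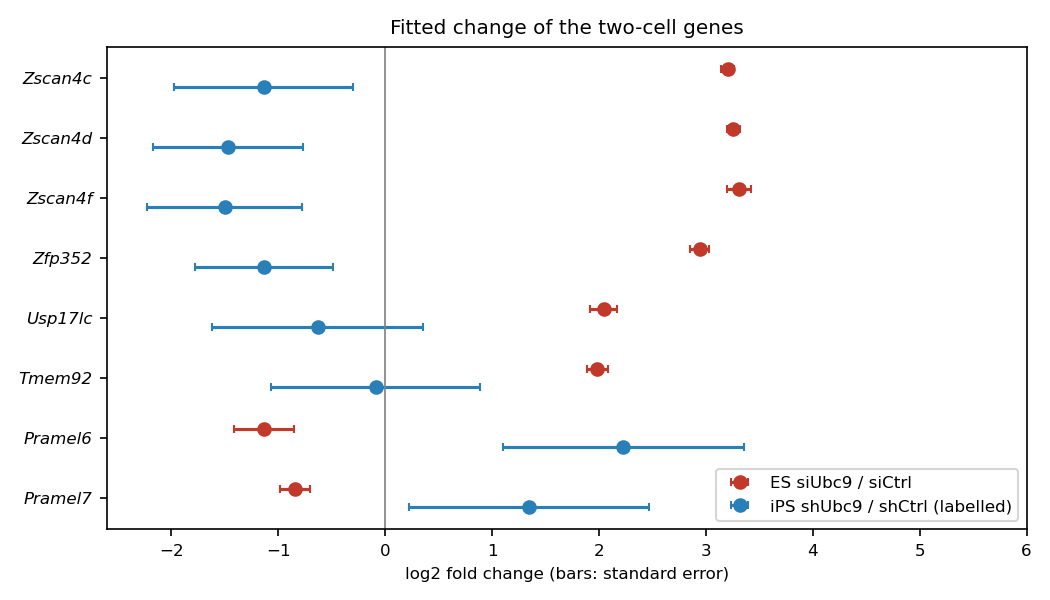
Fitted log2 fold change with its standard error for the 8 measured genes in ES cells (red, siUbc9 over siCtrl) and in iPS cells (blue, libraries labelled shUbc9 over shCtrl). In ES cells the values run from −1.13 for Pramel6 to 3.31 for Zscan4f, and in iPS cells from −1.50 for Zscan4f to 2.23 for Pramel6 with wide errors.

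The difference between the ES and iPS responses was tested as an interaction. It was called for 4 of the 8 genes, all more positive in ES cells, beside a background of 1.37% of 19186 genes called and 1.04% called higher. The difference in log2 fold change, ES minus iPS, was 4.44 ± 0.84 for Zscan4c (adjusted p = 0.0342), 4.80 ± 0.68 for Zscan4d (adjusted p = 0.00908), 4.91 ± 0.70 for Zscan4f (adjusted p = 0.00908) and 4.04 ± 0.49 for Zfp352 (adjusted p = 0.00567). It was 2.88 ± 0.91 for Usp17lc, 2.21 ± 0.97 for Tmem92, −3.44 ± 1.25 for Pramel6 and −2.20 ± 1.12 for Pramel7, none of them called (adjusted p = 0.199 to 0.536). Without iPS shUbc9 replicate 2 all 8 genes were called, 6 positive and 2 negative. The background above is that of the main fit and does not apply to this setting. The share of all genes called in this setting is not given here, so nothing is read from the count of 8. Over all genes, leaving out 1 library gave 74 to 1518 genes called in this interaction, where the main fit tested 19186. Of the genes called without iPS shUbc9 replicate 2, 44.2% were more positive in ES cells. The call of Zscan4c was lost on leaving out iPS shUbc9 replicate 1, iPS shCtrl replicate 1 or any 1 of the 6 ES libraries (adjusted p = 0.0609 to 0.124), while those of Zscan4d, Zscan4f and Zfp352 held without each library in turn. The means of depletion (siRNA or hairpin) and the cell type cannot be told apart in this comparison.

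In fibroblasts and through reprogramming the genes were barely detected. The 8 genes had 0 to 5 counts in each MEF, D4 and D7 library, and none passed the filter on low counts in any comparison among these groups, so 0 were tested, while of all genes tested 6.04% were called in MEF, 53.2% at D4, 53.6% at D7 and 18.2% between D7 and D4 controls. Zscan4f had 0 counts in all 17 of these libraries. Zscan4c had 0, 0 and 3 counts at D7 with shUbc9, against 2, 0 and 1 with shCtrl. Pramel6 had the highest sums, 7 counts at D7 with shUbc9, against 11 with shCtrl. No difference was detectable at this depth.

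Between control groups, the 8 genes had counts enough to be tested between ES siCtrl and MEF shCtrl only through the ES libraries, so nothing is read from their calls (8 of 8 higher, beside a background of 90.5% of genes called changed and 47.7% called higher). Since 7 of the 8 genes had 0 counts in MEF shCtrl, their folds are bounds, computed with 3 counts in the whole MEF shCtrl group: at least 642-fold higher for Zscan4c, 701-fold for Zscan4d, 323-fold for Zscan4f, 91.4-fold for Usp17lc, 90.9-fold for Tmem92, 85.9-fold for Pramel7 and 76.5-fold for Zfp352. Pramel6 had 234 counts in ES siCtrl, against 1 count in MEF shCtrl, a ratio of 193 (95% counting interval 34.4 to 7667). The median of all genes lay at 0.13 on the log2 scale in this comparison, which is small beside these values.

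The iPS shCtrl libraries also stood above the D7 shCtrl libraries, the last step of reprogramming measured before them. Zscan4c had 654 counts in iPS shCtrl, against 3 counts in D7 shCtrl, a ratio of 284 (95% counting interval 96.8 to 1381). Pramel6 had 183 counts in iPS shCtrl, against 11 in D7 shCtrl, a ratio of 21.7 (11.8 to 44.2). These intervals cover counting error only.

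Zfp352 was at 0.958 and 0.471 CPM in iPS shCtrl, against 1.96, 1.62 and 1.83 CPM in ES siCtrl, and was called lower (log2 fold change −1.43 ± 0.36, adjusted p = 0.0161). It was the 1 gene called of 8, beside a background of 53.3% called and 26% called lower, and the call was lost without ES siCtrl replicate 1 (adjusted p = 0.0576) or replicate 3 (adjusted p = 0.0510). Zscan4c had a log2 fold change of −0.64 ± 0.48 between them, and its iPS shCtrl levels of 15.8 and 4.5 CPM lay within and below the range of 14.1 to 16.3 CPM in ES siCtrl. With iPS shCtrl replicate 1 left out 6 of the 8 genes were called lower. With iPS shCtrl replicate 3 left out 2 were called higher and 1 lower, so each of these libraries decides the count. Over all genes, leaving out 1 library gave 6767 to 12396 genes called, where the main fit tested 18108. Counts of the 8 genes are to be read beside that large share.

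In order of group mean, ES siUbc9 was highest and stood clear of the next group for each Zscan4 copy, Zfp352, Usp17lc and Tmem92. For the Zscan4 copies ES siCtrl, iPS shCtrl and iPS shUbc9 followed, each overlapping the next, and D7, D4 and MEF groups came after a gap. For Pramel6 and Pramel7 the order differed: the libraries labelled iPS shUbc9 had the highest mean, which overlapped the next group, and ES siUbc9 was the lowest of the pluripotent groups.

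The genes varied together to different degrees over the 11 iPS and ES libraries, which share groups and depth and are not independent points. Pearson's r of log2 CPM was 0.996 between Zscan4c and Zscan4d, 0.932 between Zscan4c and Zfp352, 0.968 between Zscan4c and Usp17lc and 0.891 between Zscan4c and Tmem92. It was −0.81 between Zscan4c and Pramel6, −0.47 between Zscan4c and Pramel7 and 0.740 between Pramel6 and Pramel7.

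**Figure D4:**
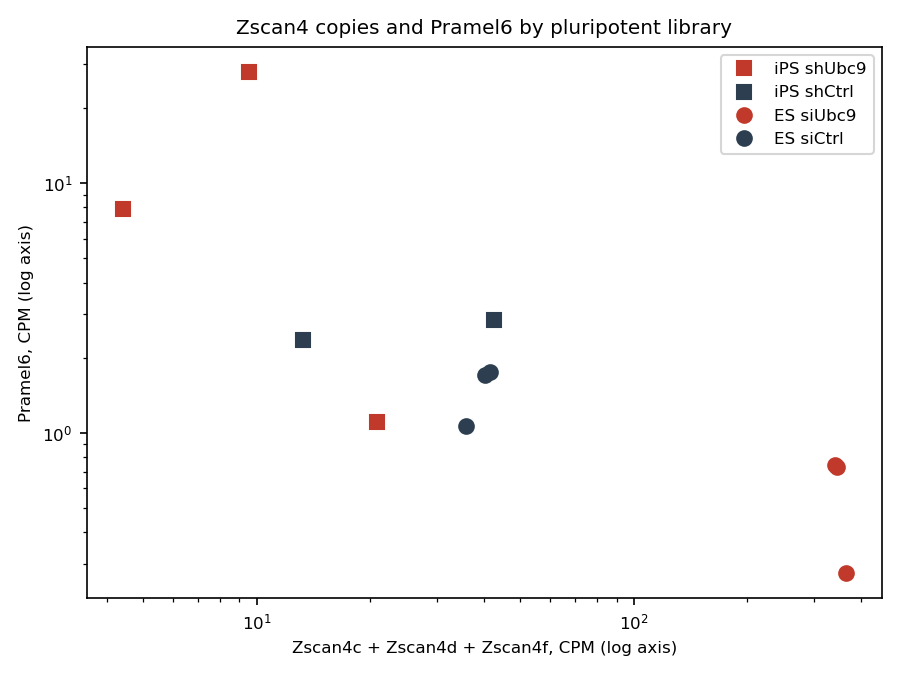
Pramel6 against the sum of Zscan4c, Zscan4d and Zscan4f in each of the 11 pluripotent libraries (CPM, both axes log; squares iPS, circles ES; red Ubc9 depleted as labelled, dark control). The ES siUbc9 libraries lie at the lower right, with Pramel6 at 0.274 to 0.747 CPM, and the libraries labelled iPS shUbc9 spread from 1.11 to 27.8 CPM.

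The 5 genes whose group means were most like the mean Zscan4 profile over the 10 groups, among 16586 genes, were Pramel18 (r = 0.9991), Pramel19, Usp17le, Gm2016 and Gm8300 (r = 0.9974 for the last). Pramel18 and Pramel19 are Prame family genes, as Pramel6 is, but with the other direction in ES cells. Pramel18 was at 14.1, 13.6 and 13.4 CPM with siUbc9, against 2.68, 2.82 and 2.72 CPM with siCtrl. Gm8300 was at 41.1, 36.7 and 36.7 CPM with siUbc9, against 6.98, 5.16 and 6.01 CPM with siCtrl. Each of the 5 was 3.81-fold to 7.80-fold higher in ES siUbc9, which their likeness over the same groups already implies.

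The ES response could not be set against that at D7. None of the 8 genes had counts enough to be tested at D7, and they entered the interaction of ES with D7 only through the ES libraries. Its calls, 3 of 8 genes beside a background of 44.3% called and 20.1% called higher, rest on 3 to 6 counts per D7 group, and nothing is read from them. Against MEF, 0 of 8 genes were called by edgeR, beside a background of 20.6%, with 0 at an unadjusted p under 0.05 and 0 called by DESeq2. That test could not estimate a MEF response for genes listed at 0 there.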

How the data were processed

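RNA was measured in 28 libraries of 10 groups. The authors deposited a raw count per gene (Entrez identifier) or repeat family, per the file headers, and STAR 2.5.0a, featureCounts, DESeq2 and build mm9 are listed in the submitters' processing notes. The sources used here do not give the strand setting or the treatment of reads mapping to several places, which limits every statement on gene copies. All columns matched a label, with 0 left over. Symbols came from RefSeq (GRCm38.p6), which matched 24191 of 26301 identifiers. Peak lists were not used, because no gene annotation of mm9 was at hand.

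The counts went into edgeR 4.0.16 (limma 3.58.1, R 4.3.3). Genes were kept by filterByExpr (minimum count 10), libraries were scaled by TMM, and the quasi-likelihood test was applied to the groups of each comparison, two-sided, with Benjamini-Hochberg adjustment over all genes tested. A gene was called at an adjusted p under 0.05. The standard error is the log2 fold change divided by the square root of F. CPM used the TMM factors of all libraries. Bounds used a floor of 3 counts over a group. The scripts were tested on simulated counts. Alternatives were DESeq2 1.42.0, library sizes alone, no filter, the replicate number as a block, one fit of all libraries, and leaving out each library. Depth was 11.4 to 58.8 M counts.

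The genes and lists were chosen with earlier results of these data known. Named genes are the chosen genes, in each list with at least 3 called genes the 2 called rises and 2 called falls of smallest p, and the 5 genes most like the Zscan4 mean over groups (log2 of CPM + 0.05, at least 1 CPM in a group). List genes that the rule names outside the ES depletion, and a further gene, are not reported here. Obox6, Duxf3, Tdpoz2, Rfpl4b, Obox2, Dppa2 and Dppa4 were named after their values were seen.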

Additional observations from a re-analysis of the deposited data

Results flagged for a closer look

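The test of the interaction called a difference in response between ES and iPS cells for 4 genes, beside 1.37% of 19186 genes called. The call of Zscan4c held in 6 of 14 alternative settings. The means of depletion (siRNA or hairpin) and the cell type cannot be told apart here. Between ES and iPS cells the difference in log2 fold change, ES minus iPS, was 4.44 for Zscan4c, 4.80 for Zscan4d, 4.91 for Zscan4f and 4.04 for Zfp352. Between ES cells and D7 the fitted value was 3.49 for Zscan4c, 3.24 for Zfp352 and 2.83 for Tmem92, but these genes could not be tested at D7, entered the fit only through the ES libraries and rest on 3 to 6 counts per D7 group, so no difference between ES cells and D7 is read from them.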

How the results depend on the processing

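In ES cells the 8 calls held with DESeq2, with library sizes alone, without the filter, with the replicate block and without each library in turn, and the one fit of all RNA libraries ended those of Pramel6 and Pramel7 and left 2907 genes called. Same-numbered ES libraries correlated at 0.279, 0.203 and 0.0672, and differently numbered ones at −0.270 to 0.184. Whether replicate numbers pair the ES libraries is therefore not settled, and the main test used no pairing. At D4 and D7 the same-numbered libraries correlated below 0. In MEF and iPS cells a group of 2 libraries forces mirrored signs, so nothing is read there. Without the replicate block 6986 genes were called in ES cells. With the replicate block 8003 genes were called in ES cells with 8 of the 8 genes, 7497 at D4, 7607 at D7, 1870 in MEF (984 without it) and 81 in iPS cells with 1 of the 8 genes, Pramel6 (2.5, adjusted p = 0.0287). The one fit called 37 genes in MEF, 4190 at D4, 6127 at D7 and 811 in iPS cells, with 1 of the 8 genes, Zscan4d, which was lower (adjusted p = 0.0379). In iPS cells DESeq2 called 10 genes and no filter 5. DESeq2 called 2 of the 8 genes and 9728 genes between iPS and ES controls, and 862 genes in the interaction of ES with iPS.

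Leaving out 1 library gave 266 to 1717 genes called in MEF, 0 to 2 in iPS cells, 1669 to 2955 between D7 and D4 controls and 74 to 1518 in the interaction of ES with iPS. It gave 6767 to 12396 genes called between iPS and ES controls and 7401 to 8668 in the interaction of ES with D7. Of the 8 genes it gave 0 to 6 called between iPS and ES controls, 3 to 8 in the interaction of ES with iPS and 1 to 3 in that with D7.

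Some uncalled log2 fold changes turned sign when 1 library was left out. In iPS cells Zscan4c ran from −2.08 to 0.067, Usp17lc from −1.96 to 0.35 and Tmem92 from −1.42 to 0.98, the highest value of each without iPS shCtrl replicate 1. Between iPS and ES controls Zscan4c ran from −1.84 to 0.068, Zscan4d from −1.49 to 0.20, Zscan4f from −1.68 to 0.025 and Tmem92 from −0.82 to 0.93, with iPS shCtrl replicate 1 and replicate 3 at the ends. In the interaction with D7, Pramel6 ran from −0.69 to 1.07 and Pramel7 from −1.25 to 0.67. In that with MEF, Usp17lc ran from −2.17 to 2.03 and Pramel6 from −3.57 to 0.79. The cause was not tested. Depth limits the MEF, D4 and D7 values, where the genes had 0 to 5 counts per library.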
